A study of Mus musculus with 4 samples.

Results

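The clustered protocadherin genes were examined in RNA-seq of E14 mESCs, a mouse embryonic stem cell line grown without feeder cells in serum and LIF. They were taken as the protein-coding genes of chromosome 18 named Pcdha, Pcdhb, Pcdhga, Pcdhgb or Pcdhgc with a number or a C-type number, which gave 58 of the 56748 genes listed. Of these, 14 belong to the alpha cluster, 22 to the beta cluster and 22 to the gamma cluster, the last with 12 A-type, 7 B-type and 3 C-type genes. The 4 libraries were WT1 and WT2, from cells of WT genotype, and KO1 and KO2, from Npac KO cells of the same E14 line. The knockouts were made with CRISPR/Cas9 and grown from picked colonies, so each KO line stands for 1 clone and has 1 library. Nothing in the labels says that the WT libraries came from separate cultures, and p-values then measure only the spread between these samples, which may be technical. The question was how these adhesion genes differed between WT and Npac KO cells.

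Clustered protocadherins are cell surface proteins of the cadherin superfamily, best known in neurons, where the set of isoforms a cell displays gives it an identity that its own branches recognize and avoid. In the alpha and gamma clusters a row of large variable exons, each with a promoter of its own, is spliced to a few constant exons at the end of the cluster, so that every isoform has its own extracellular part and a shared cytoplasmic end. Beta genes consist of a variable exon alone. Choice of a promoter depends on CTCF and cohesin, which loop it to distant enhancers, while DNA methylation and the protein SMCHD1 keep promoters silent; C-type genes, at the end of the alpha and gamma clusters, are used by most neurons rather than chosen at random.

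Total counts lay between 15850805 and 16965120 per library, and the 58 genes together took from 0.0016% to 0.00654% of a library. Npac, listed as Glyr1, was counted with 3961 reads in WT1 and 3115 in WT2 against 744 in KO1 and 888 in KO2, which is 22.7% of the WT mean after normalization. The log2 fold change was -2.14 (standard error 0.23, edgeR adjusted p = 0.00174). Of 14 ES cell markers all 14 passed the count filter, and their summed level lay between 7250 and 9386 CPM in WT and between 5907 and 6234 CPM in KO libraries (CPM, reads scaled to a common library size after TMM normalization). Among them Klf2 rose and Zfp42 (Rex1), Tbx3, Klf4 and Tfcp2l1 fell in KO cells, and Zfp42 went from 14426 and 12181 reads to 2084 and 2234. The call of Klf2 was lost without KO1 or without KO2 (edgeR adjusted p of 0.132 and 0.0696), and so were those of Col1a1 (0.116 and 0.124) and Sparc (0.275 and 0.188) among the markers below. Summed neural markers lay at 261 and 227 CPM in WT and at 358 and 370 CPM in KO libraries, with 4 of 17 rising and 2 falling, and Dcx, a marker of young neurons, had no reads. Fibroblast markers summed to 1339 and 685 CPM in WT and to 1624 and 1205 CPM in KO libraries, with Col1a1 rising and Col3a1 and Dcn at 0 reads. Endoderm markers summed to 697 and 517 CPM in WT and to 518 and 488 CPM in KO libraries, with Sparc rising and Lama1 falling. The part of these markers in the protocadherin values was not tested.

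How much of each gene could be counted depends on the exons it shares. In GENCODE release M21 the gamma genes share between 2116 and 4732 exon bases with another gene, and between 0 and 4614 bases are their own. Pcdhga10 has no base of its own when strand is ignored and was listed with 0 reads in all 4 libraries. An antisense gene lies over it, so whether its level could be measured depends on the strand setting of the counting. Reads on the shared gamma exons were not counted to Pcdhga10. In the alpha cluster from 404 bases (Pcdha4) to 3028 bases (Pcdhac2) are a gene's own, and 19 of the 22 beta genes share no base. Stretches of 150 bases, the read length, that occur identically in another member were found in the first exons of 8 alpha, 4 beta and 7 gamma genes. They made up 36.2% of the stretches in Pcdhga4 and at most 8.12% in every other member. Levels of different genes are therefore compared below per kilobase of a gene's own exon bases, and sums over a cluster are sums of reads that were assigned to 1 gene. Whether strand was used in counting is not given in the sources used here, so reads of a gene and of an antisense gene over it cannot be told apart. Own bases were counted without regard to strand, so exon bases under an exon of an antisense gene were not taken as a gene's own. If counting used strand, some genes have more bases of their own and lower levels per own kilobase than given.

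**Figure D1:**
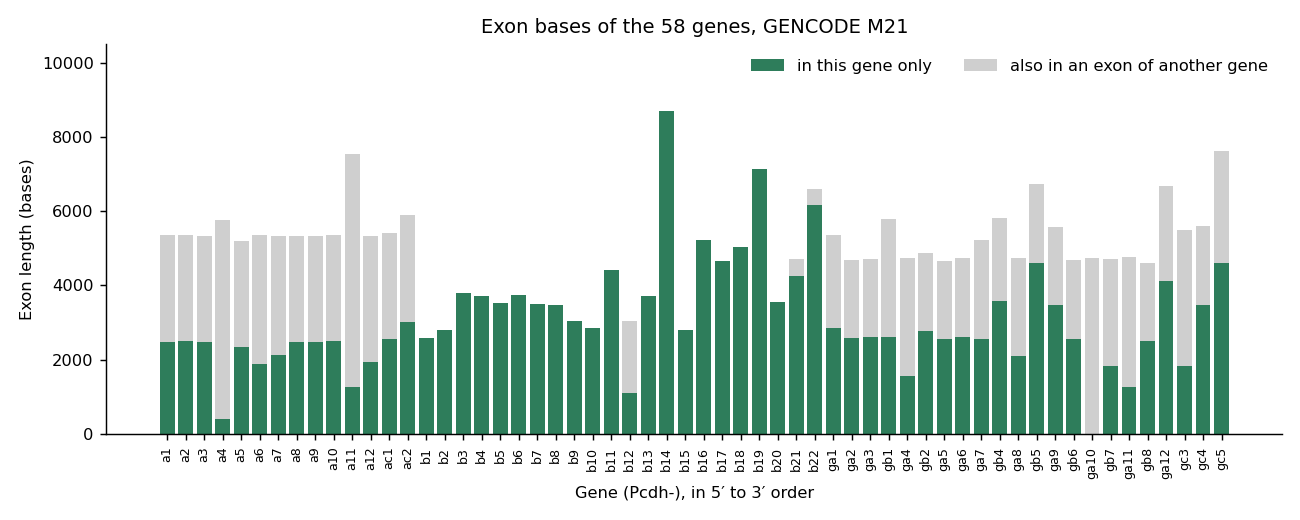
Exon bases of each of the 58 genes in genomic order, split into bases found in that gene only (green) and bases also found in an exon of another gene on either strand (grey). Nearly every beta bar is all green, the alpha and gamma bars are part grey, and Pcdhga10, with 4732 shared bases, is all grey.

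Reads fell mostly on the gamma cluster, and there the KO pair lay far below the WT pair. Summed over the 22 gamma genes, WT1 had 988 reads, WT2 641, KO1 233 and KO2 232. After normalization this was 50.7 ± 19.8 CPM in WT (SD, n = 2) and 14.2 ± 1.12 CPM in KO (SD, n = 2), so KO cells held 28.0% of the WT level. The WT libraries themselves differed, at 64.7 CPM in WT1 and 36.7 CPM in WT2, and WT1 was above WT2 in 17 of the 22 genes. With WT1 left out the log2 ratio of the summed gamma level moved from -1.84 to -1.37. No test was run on the sums, since 2 against 2 libraries cannot give an exact permutation p below 0.333.

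In the sums, C-type gamma genes stood nearer to WT than A-type and B-type genes. A-type genes, which are interspersed with B-type genes over most of the cluster, summed to 601 and 357 reads in WT1 and WT2 and to 117 and 135 reads in KO1 and KO2, which is 25.6% of the WT level. Much of the A-type KO level was Pcdhga12, and without this gene, left out after its values were seen, the A type summed to 522 and 318 reads in WT and 62 and 86 in KO libraries, or 17.1% of the WT level. B-type genes summed to 314 and 208 reads in the WT and 49 and 41 reads in the KO libraries, or 17.0% of the WT level, close to the A type without Pcdhga12. C-type genes summed to 73 and 76 reads in the WT and 67 and 56 reads in the KO libraries, or 82.7% of the WT level. Most of these reads were on Pcdhgc3, with 44 and 56 in WT and 46 and 49 in KO libraries, so the C-type sum mainly followed this gene. Pcdhgc5 and Pcdhgc4, with few reads, stood at 51.4% and 73.4% of the WT level. Both KO libraries lay below both WT libraries in all 3 types, but in the C type by little, at 4.31 CPM in KO1 against 4.35 CPM in WT2.

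The alpha and beta clusters were close to silent in all libraries. Alpha reads summed to 9 in WT1 and 10 in WT2 against 25 in KO1 and 19 in KO2. The 95% Poisson interval was 4.12 to 17.1 reads in WT1 and 16.2 to 36.9 reads in KO1. In WT2 and KO2 it was 4.80 to 18.4 and 11.4 to 29.7 reads. After normalization the alpha sum was 0.581 CPM in WT and 1.35 CPM in KO, or 233% of the WT level. Both KO libraries lay above both WT libraries in this sum. More alpha reads were on Pcdhac2, the C-type gene at the end of the alpha cluster, than on any other gene. Pcdhac2 had 5 and 8 reads in WT and 14 and 9 in KO cells. Its pooled level in KO was 176% of that in WT, with an exact interval from 85.7% to 379% for counting error, so no difference was detectable at this depth. Beta reads summed to 39 and 38 in the WT and 29 and 20 in the KO libraries. The lower KO sum came from Pcdhb22, for the other 21 beta genes summed to 23 and 24 reads in WT and 28 and 19 in KO libraries. The intervals cover counting error only, since PCR copies of a molecule are not independent.

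**Figure D2:**
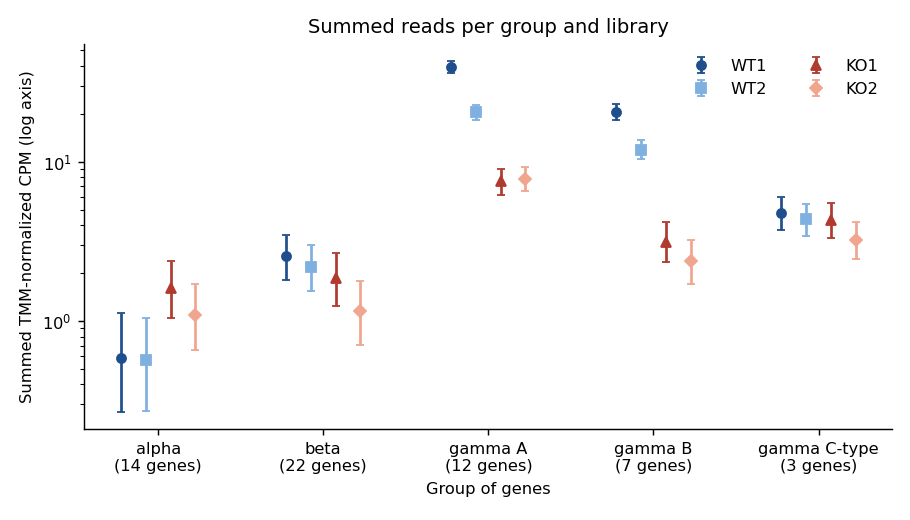
Summed TMM-normalized CPM of the alpha, beta, gamma A, gamma B and gamma C-type genes in each library on a log axis, with 95% Poisson intervals for counting error. Gamma A and gamma B lie well lower in KO1 and KO2 than in WT1 and WT2, while the intervals of the 4 libraries overlap in gamma C-type.

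Of the 58 genes, 8 had no reads and 37 had fewer than 10 reads in every library. The count filter of edgeR left 20 of them, 19 gamma genes and Pcdhb22. Of these, 11 had fewer than 10 reads in both KO libraries and passed through the WT libraries only. A lower level in KO was thus built into their passing. Pcdhga5, Pcdhga11, Pcdhgb7, Pcdhgb8 and Pcdhgc5 reached 10 reads in only KO1 or only KO2, so they too needed the WT libraries to pass. Only 4 members had at least 10 reads in every library. Of the 20 tested members, 15 fell and 0 rose in Npac KO cells by edgeR's quasi-likelihood test. A call needed an adjusted p below 0.05 and more than a 1.5-fold change. Over the 18157 genes tested, 10.7% fell and 11.0% rose by the same call. On chromosome 18 outside the clusters 12.4% of 428 tested genes fell and 7.71% rose, and among 5256 other tested genes with mean counts as low as those of the tested protocadherins 7.88% fell and 9.49% rose. By order alone, the KO pair lay wholly below the WT pair in 22 of the 50 members with a read and wholly above it in 5. Of all genes with a read 24.7% lay below and 25.6% above in this way, and of all genes tested 32.5% and 33.2%. The order was below in 18 of 22 gamma genes, 4 of 22 beta genes and 0 of 14 alpha genes, and above in 0 gamma, 2 beta and 3 alpha genes. The number of falling genes rested on having both KO lines, for it was 4 with KO1 left out and 1, Pcdhga8, with KO2 left out. Without WT1 it was 12, with Pcdhga11, Pcdhgb1, Pcdhgb6 and Pcdhgb8 lost and Pcdhga4 gained, and without WT2 it was 15. Calls over all genes, up and down together, made up 21.7% of the genes tested with the 4 libraries, 8.66% without KO1, 8.59% without KO2, 29.4% without WT1 and 36.4% without WT2.

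Among A-type gamma genes, 7 of 12 fell. Pcdhga1, the first gene of the cluster (18: 37794846-37974926, plus strand, as the deposited tables list it, which is not the mm10 position), had the highest mean WT level per own kilobase, with 143 reads in WT1 and 69 in WT2 against 19 in KO1 and 20 in KO2. Per kilobase of its own exons its level went from 2.34 to 0.419 CPM, and its log2 fold change was -2.48 (standard error 0.54, edgeR adjusted p = 0.0177). Both KO libraries were far below WT2, the lower of the WT pair. Without KO2 the call was lost.

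Among the members Pcdhga8 had the lowest fitted log2 fold change, followed by Pcdhb22 of the beta cluster. Pcdhga8 had 76 reads in WT1 and 22 in WT2 against 2 in KO1 and 3 in KO2, so the WT libraries stood far apart from each other and the KO libraries were near zero. Its log2 fold change was -4.29 (standard error 0.88, edgeR adjusted p = 0.0148), and the pooled KO level was 5.09% of WT with an exact counting interval from 1.62% to 12.3%. Without WT1 its log2 fold change was -3.02, above the range of -3.95 to -3.59 that Pcdhb22 kept with each library left out, so the order of these genes rested on WT1. Pcdhga8, Pcdhga9, Pcdhga3 and Pcdhga7 passed the count filter through the WT libraries only, so low counts in KO were part of the way they came to be tested. Pcdhga9 was next among the A-type genes, with 47 and 24 reads in WT and 4 and 2 in KO libraries (log2 fold change -3.54, edgeR adjusted p = 0.0155). The other falling A-type genes were Pcdhga2, Pcdhga3, Pcdhga7 and Pcdhga11. Pcdhga2 had 68 and 52 reads in WT and 10 and 17 in KO libraries, and its log2 fold change of -2.17 was the smallest of the A-type genes that fell. Pcdhga3 had 45 and 30 against 5 and 7 reads, with a log2 fold change of -2.65. In none of these genes did a KO library reach a WT library.

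Pcdhga7 and Pcdhga11 fell by 2.51 and 2.28 on the log2 scale. DESeq2 did not call Pcdhga7 (adjusted p = 0.0585), and limma-trend on FPKM did not call Pcdhga11 (adjusted p = 0.0527). Pcdhga7 had 30 and 27 reads in the WT and 3 and 7 reads in the KO libraries. Pcdhga11, with 61 and 30 reads in the WT and 10 and 9 in the KO libraries, has only 1256 bases of its own and was next to Pcdhga1 in level per own kilobase, at 2.27 CPM in WT and 0.463 CPM in KO, and the WT levels of these 2 genes did not differ beyond their spread (3.30 and 1.39 CPM in WT1 and WT2 for Pcdhga1, 3.18 and 1.37 CPM for Pcdhga11). An antisense noncoding RNA gene, Gm26672, lies over Pcdhga11, Pcdhga12, Pcdhgb7 and Pcdhga10 and was listed with 9 and 10 reads in WT and 0 and 0 in KO libraries, so that up to a few reads of these genes could belong to the other strand. Gm26672 was picked out after its values were seen. Exon bases of Pcdhga11 under Gm26672 were not counted as its own. The rank of Pcdhga11 per own kilobase may therefore not hold if counting used strand.

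The remaining A-type genes did not pass. Pcdhga4 had 16 and 26 reads in WT and 1 and 8 in KO libraries (log2 fold change -2.21, edgeR adjusted p = 0.0818). Pcdhga5 had 30 reads in each WT library and 8 and 11 in the KO libraries (log2 fold change -1.66, edgeR adjusted p = 0.0597). Both were thus lower in both KO libraries without reaching the threshold. Pcdhga6, with 6, 8, 0 and 2 reads in WT1, WT2, KO1 and KO2, was too low to test.

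Pcdhga12 is the last A-type gene (18: 37898633-37974926, plus strand), 3.78 kb past the start of Pcdhgb8 and nearest to the C-type genes. It had 79 reads in WT1 and 39 in WT2 against 55 in KO1 and 49 in KO2, so both KO libraries lay between the WT libraries. Per own kilobase its mean level was 0.898 CPM in WT and 0.772 CPM in KO. The log2 fold change was -0.21 with a 95% confidence interval from -1.39 to 0.96 (edgeR adjusted p = 0.792), an interval that holds both a more than 2-fold lower and a higher level. Without WT1 the value was 0.48 and without the other libraries it was negative.

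All 7 B-type genes fell by edgeR, and 4 of them by DESeq2, where Pcdhgb1, Pcdhgb2 and Pcdhgb6 had an adjusted p of 0.061, 0.0514 and 0.0657. On FPKM with limma-trend Pcdhgb1 also missed, at an adjusted p of 0.0563. Pcdhgb1 had the largest fall among them, with 26 and 13 reads in WT and 1 and 3 in KO libraries (log2 fold change -3.25, standard error 0.81, edgeR adjusted p = 0.0277). Pcdhgb4 went from 57 and 28 reads to 5 and 6 (log2 fold change -2.96). Pcdhgb6 went from 29 and 18 reads to 3 and 4 (log2 fold change -2.73). These 3 genes, with Pcdhgb2 and Pcdhgb5, passed the count filter through the WT libraries only.

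Pcdhgb8, the last B-type gene, had 69 and 35 reads in the WT and 13 and 5 in the KO libraries (log2 fold change -2.53). Pcdhgb5 had 62 and 36 against 9 and 9 reads (log2 fold change -2.46). Pcdhgb2 had 34 and 35 against 8 and 6 reads (log2 fold change -2.28). Pcdhgb2 and Pcdhgb7 were read about equally in WT1 and WT2. Pcdhgb7 had 37 and 43 reads in WT and 10 and 8 in KO libraries, and its log2 fold change of -2.13 (standard error 0.53, edgeR adjusted p = 0.0273) was the smallest among the 14 gamma genes that fell. Over those 14 genes the mean KO level ranged from 4.84% to 22.6% of WT, the log2 fold change from -4.29 to -2.13 and the edgeR adjusted p from 0.0148 to 0.0376.

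**Figure D3:**
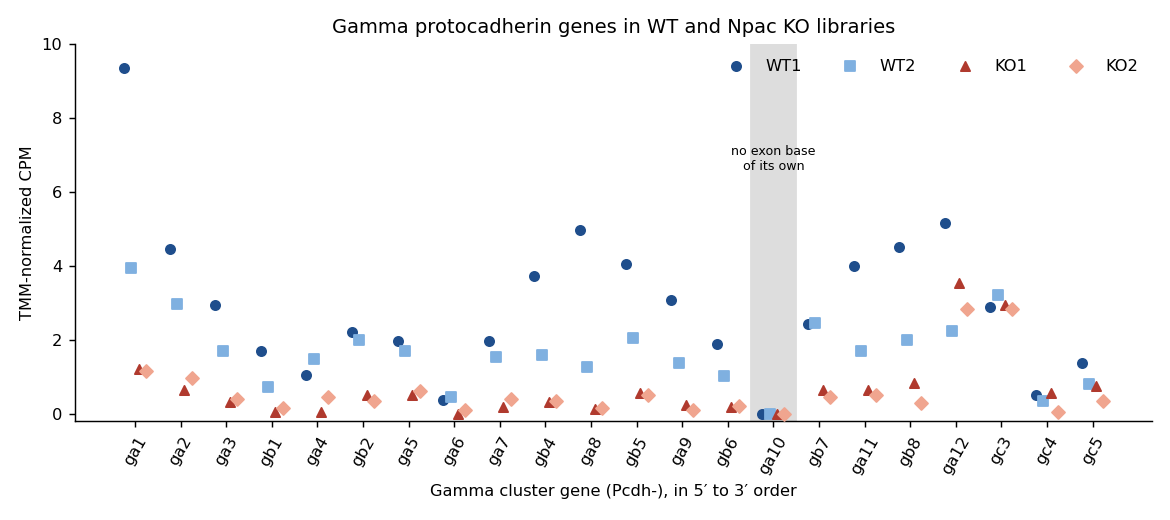
TMM-normalized CPM of each gamma gene in WT1, WT2, KO1 and KO2, in genomic order from Pcdhga1 to Pcdhgc5. From Pcdhga1 to Pcdhgb8 the KO points lie below the WT points, apart from Pcdhga10 at 0 (shaded), while at Pcdhga12 and Pcdhgc3 the KO points lie among or between the WT points.

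No C-type gamma gene passed the thresholds. Pcdhgc3 (18: 37939417-37974926, plus strand), a C-type isoform known also from cells other than neurons, had 44 reads in WT1 and 56 in WT2 against 46 in KO1 and 49 in KO2, with little spread and both KO libraries between or beside the WT libraries. Its log2 fold change was -0.07 with a 95% confidence interval from -1.04 to 0.89 (edgeR adjusted p = 0.920), and with WT2 left out it was 0.0029. Per own kilobase its mean was 1.67 CPM in WT and 1.59 CPM in KO, behind Pcdhga1 and Pcdhga11 in the WT mean and highest in KO. In WT2 it was above both, at 1.76 CPM against 1.39 and 1.37 CPM. An antisense noncoding RNA gene, BC037039, overlaps Pcdhgc3, so these ranks may not hold if counting used strand. Pcdhgc5 had 21, 14, 12 and 6 reads in WT1, WT2, KO1 and KO2 (log2 fold change -0.96, 95% confidence interval -2.44 to 0.53, edgeR adjusted p = 0.315), lower in both KO libraries but by less than the error. Pcdhgc4, at 8, 6, 9 and 1 reads, was too low to test. Differences in response between members were not tested.

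The gamma reads were split differently among the genes in the WT and KO libraries, given here as a description since the total was itself lower in KO. The 3 C-type genes held 7.39% of gamma reads in WT1 (95% Wilson interval 5.92% to 9.19%) and 11.9% in WT2 (9.58% to 14.6%), against 28.8% in KO1 (23.3% to 34.9%) and 24.1% in KO2 (19.1% to 30.0%). Pcdhgc3 made up 4.45% and 8.74% of gamma reads in WT and 19.7% and 21.1% in KO libraries, and Pcdhga12 made up 7.996% and 6.08% in WT and 23.6% and 21.1% in KO libraries. B-type genes held 31.8% and 32.4% in WT and 21.03% and 17.7% in KO libraries. The share of all 12 A-type genes, 60.8% and 55.7% in WT and 50.2% and 58.2% in KO libraries, overlapped between genotypes. Without Pcdhga12, left out after its values were seen, the A-type share was 52.8% and 49.6% in WT and 26.6% and 37.1% in KO libraries, lower in KO as for the B type.

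**Figure D4:**
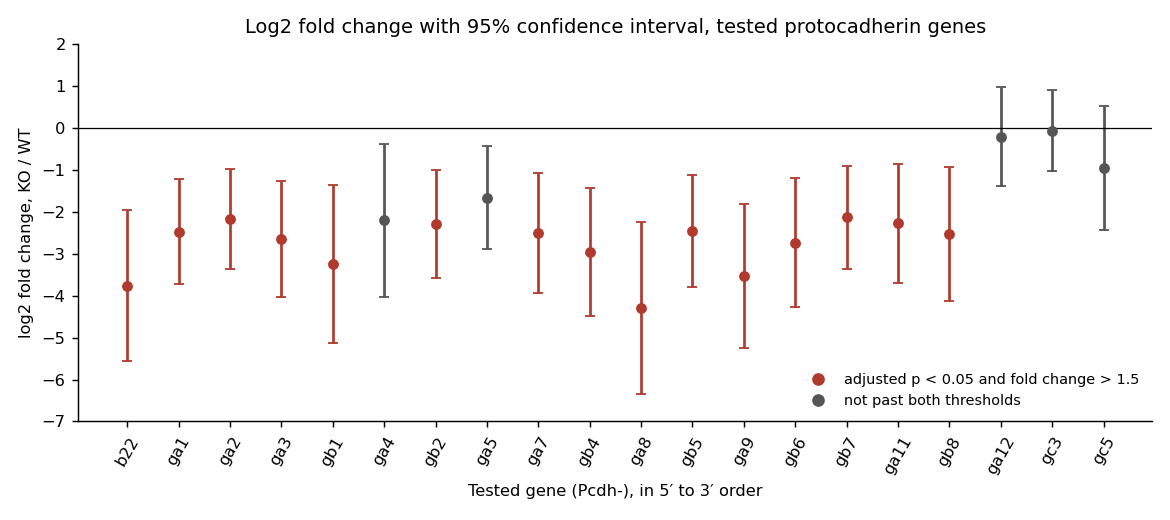
Log2 fold change of Npac KO against WT with its 95% confidence interval for the 20 protocadherin genes that passed the count filter, in genomic order, with the 15 genes past both thresholds in red. The intervals of Pcdhga12, Pcdhgc3 and Pcdhgc5, the 3 genes farthest 3′, include 0, and all other intervals lie below it.

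In the beta cluster, Pcdhb22 fell by edgeR (18: 37650924-37657532, plus strand). It is the last beta gene, 143.9 kb before the start of Pcdhga1, and was counted with 16 reads in WT1 and 14 in WT2 against 1 in KO1 and 1 in KO2. Its log2 fold change was -3.76 (standard error 0.78, edgeR adjusted p = 0.0149), and the pooled KO level was 6.64% of WT with an exact counting interval from 0.769% to 26.2%. It passed the count filter through the WT libraries only, and DESeq2 did not call it (adjusted p = 0.0708). With KO1 or KO2 left out its edgeR adjusted p was 0.171 and 0.186. No other beta gene passed the filter. Pcdhb17, with 3, 8, 2 and 3 reads in WT1, WT2, KO1 and KO2, and Pcdhb2, with 3, 2, 4 and 3 reads, were the next most read overall. Pcdhb3, chosen after its values were seen, went against Pcdhb22 in order, with 0 and 1 reads in WT and 6 and 5 in KO libraries, and its pooled ratio had a counting interval that began at 159% of WT. Besides Pcdhac2, the most read alpha genes were Pcdha3 with 1, 0, 3 and 2 reads, Pcdha5 with 0, 2, 1 and 2 reads and Pcdha6 with 0, 0, 3 and 2 reads in WT1, WT2, KO1 and KO2. At these counts an absence or a change of an alpha isoform was not detectable.

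Genes around the clusters were compared next. Within 1 Mb of the outermost members lay 94 other genes, of which 44 were tested. Of these 2 rose (4.55%) and 3 fell (6.82%), shares below the 11.0% and 10.7% over all genes, with a median log2 fold change of -0.30 against 0.0015 over all genes tested. The nearest of them was 3222401L13Rik, a noncoding RNA gene on the same strand that ends at 37794795, just before Pcdhga1. It had 87 and 65 reads in WT and 27 and 24 in KO libraries and fell (log2 fold change -1.59, standard error 0.46, edgeR adjusted p = 0.0451). Taf7, a subunit gene of the general transcription factor TFIID that lies between the beta and gamma clusters, had 1725 and 2420 reads in WT and 2369 and 2553 in KO libraries (log2 fold change 0.25, edgeR adjusted p = 0.353). The 4 tested neighbours between the outermost members had a median log2 fold change of -1.07. The KO pair lay above the WT pair for Taf7, and below it for 3222401L13Rik, Gm8242 and 4930517L18Rik. The last of these had 19 and 13 reads in WT and 4 and 4 in KO libraries (log2 fold change -1.99, edgeR adjusted p = 0.0634). The call of 3222401L13Rik was lost with KO1, KO2 or WT1 left out, at edgeR adjusted p of 0.184, 0.273 and 0.061, and on FPKM with limma-trend (0.0623).

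Beyond the gamma cluster Diaph1, which encodes an actin-nucleating formin, rose from 1899 and 1953 to 3796 and 3750 reads (log2 fold change 0.96, edgeR adjusted p = 0.011). Spry4, an inhibitor of receptor tyrosine kinase signalling, fell from 1533 and 1508 to 233 and 405 reads (log2 fold change -2.28, edgeR adjusted p = 0.0021). Before the alpha cluster Wdr55 rose by 0.84 and the growth factor gene Hbegf fell by 1.18 on the log2 scale. Hbegf and Wdr55 lost their calls with either KO library left out (edgeR adjusted p between 0.0525 and 0.208) and Diaph1 with KO1 left out (0.1003), while Spry4 kept its call with each library left out.

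**Figure D5:**
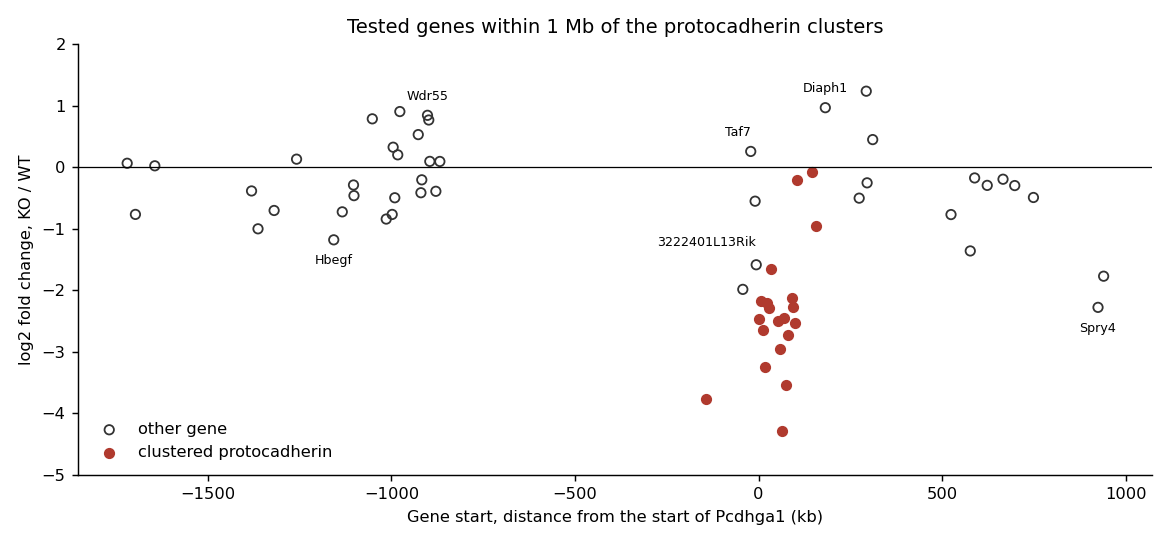
Log2 fold change of Npac KO against WT for tested genes by distance of their start from the start of Pcdhga1 in kb, with clustered protocadherins in red and other genes within 1 Mb of the clusters as open circles. The red points gather between -4.29 and -2.13 except for Pcdhga5, Pcdhga12, Pcdhgc3 and Pcdhgc5, while most open circles lie between -1 and 1.

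Regulators of protocadherin promoters were measured at high counts. Of 26 regulator genes, all tested, 4 rose and 0 fell, with a median log2 fold change of 0.08. Over all genes tested 11.0% rose and 10.7% fell. Dnmt3a, a de novo DNA methyltransferase, had 1125 and 984 reads in WT and 2728 and 3785 in KO libraries, a log2 fold change of 1.60 (standard error 0.22, edgeR adjusted p = 0.00394). Atf7ip, a partner of the histone H3K9 methyltransferase SETDB1, rose by 1.73 and the H3K9 methyltransferase gene Ehmt2 and its partner Wiz by 0.70 and 0.91 on the log2 scale. These 4 genes were above WT in both KO libraries. Dnmt3a and Atf7ip kept their calls with each library left out. Wiz lost its call without KO1 or KO2 (edgeR adjusted p of 0.185 and 0.0613) and Ehmt2 without KO1, KO2 or WT1, the last at a log2 fold change of 0.58.

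The other named regulators did not pass the thresholds. Ctcf had 2514 and 1823 reads in WT and 2803 and 2766 in KO libraries (log2 fold change 0.34, edgeR adjusted p = 0.343), and with WT1 left out it passed, at 0.68 (edgeR adjusted p = 0.00629). Smchd1 had a log2 fold change of 0.19 (edgeR adjusted p = 0.515), Setdb1 of 0.27 (edgeR adjusted p = 0.306) and Dnmt3b, the other de novo methyltransferase gene, of 0.59 (edgeR adjusted p = 0.107). Whether the level of any regulator bears on the protocadherin values was not tested.

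Non-clustered protocadherins, which lie outside the 3 clusters, held no gene that fell past the thresholds. The most read of them, Pcdh1, had 202 and 301 reads in WT and 100 and 197 in KO libraries (log2 fold change -0.77, edgeR adjusted p = 0.155). After normalization its KO pair lay below its WT pair, while the pairs of Pcdh8 overlapped. Of 12 genes 3 were tested, and Pcdh19, a delta protocadherin, rose from 6 and 17 reads in WT to 63 and 71 in KO libraries (log2 fold change 2.55, standard error 0.56, edgeR adjusted p = 0.0179). With KO1 or KO2 left out its edgeR adjusted p was 0.0549 and 0.0645. Of 19 genes for proteins that process clustered protocadherins or signal from them, 1 rose and 3 fell, against 11.0% and 10.7% of all genes tested. Ptk2b, the kinase PYK2, which gamma and alpha cytoplasmic ends bind, rose from 167 and 239 to 759 and 796 reads (log2 fold change 1.94). Psen2, a catalytic subunit of gamma-secretase, fell by 1.93, the kinase gene Fyn by 1.26 and Brk1, of the WAVE actin complex, by 0.65 on the log2 scale. The median over the list was -0.46. Brk1 lost its call with KO1, KO2 or WT2 left out, the last at a log2 fold change of -0.56, and the other 3 kept theirs.

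Among 14 classical cadherin and catenin genes, 2 of the 10 tested rose and 3 fell, against 11.0% and 10.7% of all genes tested. Cdh1, the E-cadherin of ES cell contacts, went from 3793 and 4162 reads to 8327 and 7606 (log2 fold change 1.00, edgeR adjusted p = 0.0115), and Cdh3 rose by 1.58 on the log2 scale. The catenin genes Ctnnb1 and Ctnna1, which link cadherins to actin, fell by 1.04 and 0.87, and Cdh4 fell by 2.25 on the log2 scale. Cdh1 lost its call with KO1 left out (edgeR adjusted p = 0.104), Ctnnb1 with KO2 left out (0.0909) and Ctnna1 with either (0.0512 and 0.215), while Cdh3 and Cdh4 kept theirs.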

How the data were processed

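RNA-seq of 4 libraries was used (WT1, WT2, KO1, KO2). The authors aligned 150-base paired reads by HISAT and deposited, for each gene, the raw counts and FPKM, the latter the same counts divided by the deposited gene length and a scaled library size. The submitters' processing notes name CASAVA, HISAT2 2.0.5, featureCounts 1.5.0-p3 and mm10. The coordinates of all 58 genes differ from GRCm38 (mm10) by the same 133053 bases, so positions are printed as deposited and are not mm10 positions, and GENCODE M21 was used through gene IDs for exon structure only. Sequences are not shown.

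Counts were fitted in R 4.3.3 with edgeR 4.0.16 (TMM, filterByExpr, quasi-likelihood test) over all 18157 genes that passed the filter. Adjusted p-values are Benjamini-Hochberg over those genes, with calls below an adjusted p of 0.05 at more than a 1.5-fold change, as in the study's methods. Means and SDs are of TMM-normalized CPM. Alternatives used DESeq2 1.42.0, limma 3.58.1 on log2(FPKM + 0.1), other scalings, filters and thresholds, a replicate block, and each library left out. Intervals are exact Poisson, exact binomial or Wilson, except those of log2 fold changes. Each standard error is the absolute log2 fold change divided by the square root of the quasi-likelihood F. The interval of a log2 fold change is its value plus and minus the t quantile times this standard error.

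The members and gene lists were chosen with earlier results of these data known. Named genes are members, neighbours and list genes past both thresholds, the 3 most read members of each type, Glyr1, Taf7, Ctcf, Smchd1, Dnmt3a, Dnmt3b and Setdb1. The other gamma genes are given to account for every member, and Gm8242 and 4930517L18Rik to account for every tested gene between the outermost members. Pcdh1 and Pcdh8 are given to account for every tested non-clustered protocadherin.

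Across genes, log2 CPM correlated at 0.967 between WT1 and WT2 and at 0.983 between the KO libraries, and counts differed beyond sampling noise in both pairs (chi-square per gene 41.9 and 13.1).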

Additional observations from a re-analysis of the deposited data

How the results depend on the processing

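With 15 protocadherin genes down, other scalings (RLE, upper quartile, library totals), protein-coding genes only, a fold change over 2 and no fold threshold each gave 15. In those settings 8.22% to 11.0% of all genes fell, against 10.7% in the main fit. No count filter gave 16 of 50 members tested (8.56% of all genes), limma-trend on FPKM 13 (9.56%) and an unadjusted p under 0.05 gave 17 (17.0%). DESeq2 gave 10 of the 22 members with an adjusted p, without Pcdhb22, Pcdhga7, Pcdhgb1, Pcdhgb2 and Pcdhgb6. By DESeq2 6.34% of all genes with a read fell. A filter of 10 reads in every library left 4 members testable, of which 2 fell, both gamma genes, against 10.2% of all genes tested. No alternative called a member up. With a library left out, the log2 fold change of Pcdhga12 ranged from -0.70 to 0.48 (without WT1) and that of Pcdhgc3 from -0.17 to 0.0029 (without WT2), never past the threshold.

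Replicate numbers are shared between the genotypes but no label says that they mark a batch, and the deviations of same-numbered libraries correlated at 0.332. With the number as a replicate block, 17 members fell, all 15 and Pcdhga4 and Pcdhga5, and over all genes 3128 rose and 2994 (16.5%) fell. The block also called 14 neighbours, 2 non-clustered protocadherins and 3 fibroblast markers.

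Against 5 neighbours called, the count was 9 with no count filter, 3 at a fold over 2 and 13 at an unadjusted p, where 3074 genes rose and 3090 fell in all. At a fold over 2, 2 regulators and 1 endoderm marker were called. The non-clustered list had 0 calls with 10 reads in every library, and the fibroblast list 0 with limma-trend and 2 at an unadjusted p.

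With each library left out in turn, the members down ranged from 1 to 15 and the gamma genes down from 1 to 14. All genes up ranged from 826 to 3571 and down from 821 to 3384, and neighbours called from 1 to 15. Calls ranged from 2 to 8 in regulators, 0 to 2 in non-clustered protocadherins, 3 to 7 in partners and in classical cadherins, 4 to 8 in ES, 3 to 8 in neural, 0 to 4 in fibroblast and 1 to 2 in endoderm markers. The log2 ratio of summed levels ranged from 0.92 to 1.47 for alpha, -1.03 to -0.34 for beta, -2.19 to -1.37 for gamma, -2.36 to -1.41 for gamma A, -2.90 to -2.11 for gamma B and -0.50 to -0.083 for gamma C-type. Chosen after the data were seen, the sum without Pcdhga12 gave -2.55 for gamma A and the sum without Pcdhb22 gave 0.0098 for beta. The cause of the other shifts was not tested. Depth limits the alpha and beta clusters most, since 37 of the 58 genes, most of them alpha or beta, had under 10 reads in every library.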
